A study of Mus musculus with 85 samples.

Results

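Neural cells of the embryonic mouse brain in which Mof had been knocked out were compared directly with neural cells labelled as Kansl3 knockouts. The comparison rests on 6 of the 85 samples of the series, chosen by their labels. These are the 3 Mof nKO libraries M643, M646 and M689 and the 3 Kansl3 nKO libraries K3_349, K3_356 and K3_366, and values are given in these orders throughout. All came from brains at E14.5, and the neural cells were sorted by flow cytometry with the EMBRACE technique. Both neural knockouts (nKO) were induced with Nestin-Cre, a recombinase under a promoter active in neural progenitors, so cells of the brain in which that promoter was never active keep the gene. The 3 Cre control neural libraries, Cre183, Cre184 and Cre188, show on which side of the control level each knockout lies. A further 3 Mof nKO and 3 Kansl3 nKO libraries from whole E14.5 brain, grouped by their labels, give the contrast in other samples. The labels give no litter, sex or batch, and a preparation batch cannot be told apart from genotype. They do not say that libraries came from separate animals, so how far the p-values measure technical spread is not known. The sex check below shows only that not all neural Kansl3 nKO libraries, nor all neural Cre libraries, came from the same animal. RNA came from a column kit and libraries from a TruSeq kit, and the instrument, a HiSeq or a NextSeq, is not stated for each library.

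MOF, encoded by Kat8, is the enzyme that acetylates lysine 16 of histone H4. It works in the NSL complex, which sits at promoters of broadly expressed genes, with KANSL1, KANSL2, KANSL3, MCRS1, PHF20, WDR5, HCFC1 and OGT, and it also works in the MSL complex. Loss of Kat8 therefore removes the enzyme from both complexes, while KANSL3 belongs to the NSL complex alone.

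Each of the 6 libraries held between 7692944 and 10753089 reads. The ribosomal RNA gene Rn18s-rs5 took 30.7, 39.3 and 20.5% of the Mof nKO reads and 12.3, 10.7 and 12.2% of the Kansl3 nKO reads (15.4, 28.7 and 22.6% in Cre). The 10 neural markers summed to 44450 to 45280 scaled reads in Mof nKO and 40034 to 40838 in Kansl3 nKO (3 of 10 higher in Mof nKO), a scaled read being a read divided by a size factor for its library. Microglia markers summed to 6.19 to 14.502 against 7.31 to 11.7, and none of the 10 reached the level tested. Endothelial markers summed to 67.7 to 100.4 against 62.8 to 68 (1 of 4 tested higher in Mof nKO), and pericyte markers to 461 to 588.8 against 726.1 to 803.5 (2 of 5 lower). Fibroblast markers summed to 26.3 to 44.5 against 46.8 to 73.9 (1 of 3 lower), and choroid plexus markers to 693.7 to 740.5 against 920.3 to 969.8 (2 of 2 lower). Erythroid markers summed to 7053 to 10038 against 8596 to 16898 (1 of 9 lower). No marker was at 0 in all 6 libraries, and the part of these other cells in the results was not tested. Library K3_349 stood apart by sex, with Xist at 7742 scaled reads and the Y-linked Ddx3y at 0, while Ddx3y lay between 586.6 and 826.1 in the other 5. Of the controls, Cre183 showed the same pattern. Library M689 stood apart by the embryonic globins Hba-x (0 against 20.1 to 63.6 elsewhere) and Hbb-y (41.1 against 349.6 to 660.2), chosen after their values were seen. In RNA from sorted populations, fewer cells of a type and less RNA per cell cannot be told apart.

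The targeted genes did not separate the groups as their labels would. Kat8 (MOF; chr7:127912517-127925838, mm10) stood at 289.9, 258 and 278 scaled reads in Cre, 89.4, 106.8 and 104 in Mof nKO and 109, 127 and 133 in the libraries labelled Kansl3 nKO. It was low in both knockouts, whose values did not overlap. The difference of Mof nKO minus Kansl3 nKO on the log2(scaled reads + 1) scale did not pass (limma, -0.29 ± 0.14, adjusted p = 0.104), but passed under scaling to total reads (-0.68) and with the gene-length trend removed (-0.46). Kansl3 (chr1:36335730-36369193) stood at 543, 585 and 538 in Cre, 518, 664 and 569 in Mof nKO and 654, 659 and 705 in the libraries labelled Kansl3 nKO. The libraries labelled Kansl3 nKO thus had no less Kansl3 signal than Cre, and they overlapped Mof nKO (-0.21 ± 0.09, adjusted p = 0.0822). The difference passed as lower without library M646 (adjusted p = 0.0285) and under both scalings to totals. The deleted exons are not stated here, so a count over the whole gene may not see the deletion, in whole brain as well. There Kansl3 stood at 831, 837 and 877 scaled counts in the libraries labelled Kansl3 nKO and 813, 831 and 631 in Mof nKO (-0.18 ± 0.11, adjusted p = 0.303, edgeR). Whole-brain Cre libraries were not analysed, so the whole-brain level was not set against its control. Every direction below is drawn from labels that the Kansl3 level does not check. Kansl2 (chr15:98517658-98534770) was at 483, 473 and 468 in Mof nKO and 530, 538 and 549.8 in the libraries labelled Kansl3 nKO. These groups did not overlap, and the difference did not pass (-0.18 ± 0.07, adjusted p = 0.0633), though it passed as lower under both scalings to totals and with the gene-length trend removed.

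**Figure D1:**
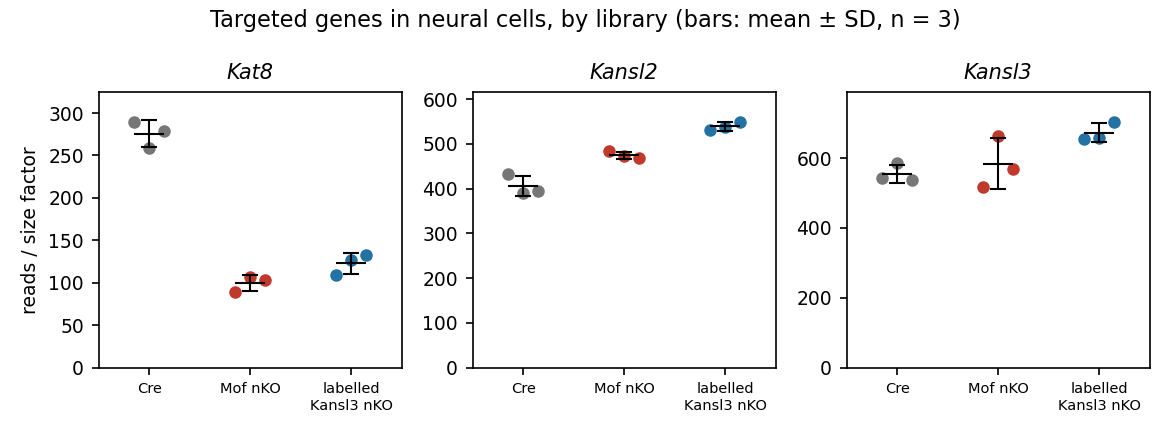
Scaled reads (vertical axis) of Kat8, Kansl2 and Kansl3 in the 9 neural libraries, 1 point per library, with bars for the mean and SD of each group of 3. Kat8 lies between 89.4 and 133 in the 6 knockout libraries and above 258 in Cre, while Kansl3 in the libraries labelled Kansl3 nKO lies between 654.1 and 704.5.

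Other subunits moved in both directions. Kansl1, the scaffold of the NSL complex, was lower in Mof nKO, at 677, 667 and 796 against 1134, 1107 and 933 in the libraries labelled Kansl3 nKO. The Mof nKO values lay above the Cre range of 618 to 638 and the others higher still (-0.57 ± 0.09, adjusted p = 0.000621). Mcrs1, another NSL subunit, was higher in Mof nKO (0.37 ± 0.09, adjusted p = 0.00495), at 847, 755 and 749 against 562, 584 and 672. This turned to -0.01 under scaling to total reads and no longer passed with the gene-length trend removed. Of the 10 NSL genes tested 3 were higher (0 under total-read scaling) and 1 lower, while the list median was -0.15, opposite in sign to most of its calls. Without library K3_366 the lower count was 3, and without M646 it was 2. In the MSL and MYST acetyltransferase list 3 of 7 were higher (0 under total-read scaling) and 1 lower, and only 1 was higher without library M643, M646, K3_349 or K3_356 or with the gene-length trend removed. The lower count was 3 without library K3_366 and 2 without M689. Msl3, a chromodomain subunit of the MSL complex, was at 277, 252 and 246 against 161, 161 and 198 (0.58 ± 0.11, adjusted p = 0.00178, lost under total-read scaling). Kat6a, an acetyltransferase of the MYST family, was lower, at 1129.9, 1200.5 and 1409 against 1888, 1804 and 1503 (-0.47 ± 0.10, adjusted p = 0.00248).

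Across the 13996 genes tested, 3013 were higher in Mof nKO (21.5% of those tested) and 2843 were lower (20.3%) at an adjusted p under 0.05, the threshold used throughout. Neural counts of list members are to be read against these shares, and whole-brain counts against the 7.94% higher and 7.27% lower there. Most differences were modest. The median absolute log2 difference of the genes that passed was 0.49, and 180 higher and 411 lower genes reached a log2 difference of 1. These values use scaling by median of ratios, under which the median difference of all genes tested was 0.01. Scaling to total reads, which takes in the unequal share of Rn18s-rs5, moved that median to -0.38 and the split to 260 higher and 6010 lower. Directions below are therefore relative to the median gene. Without Rn18s-rs5 in the totals the split was 2576 to 3213. It was 2070 to 2053 without library M643, 2130 to 2069 without M646 and 2995 to 2975 without M689. Without K3_349, K3_356 and K3_366 it was 2116 to 1944, 2120 to 1930 and 3453 to 3134. List counts under another scaling or with 1 library left out are to be read against the split of that setting.

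**Figure D2:**
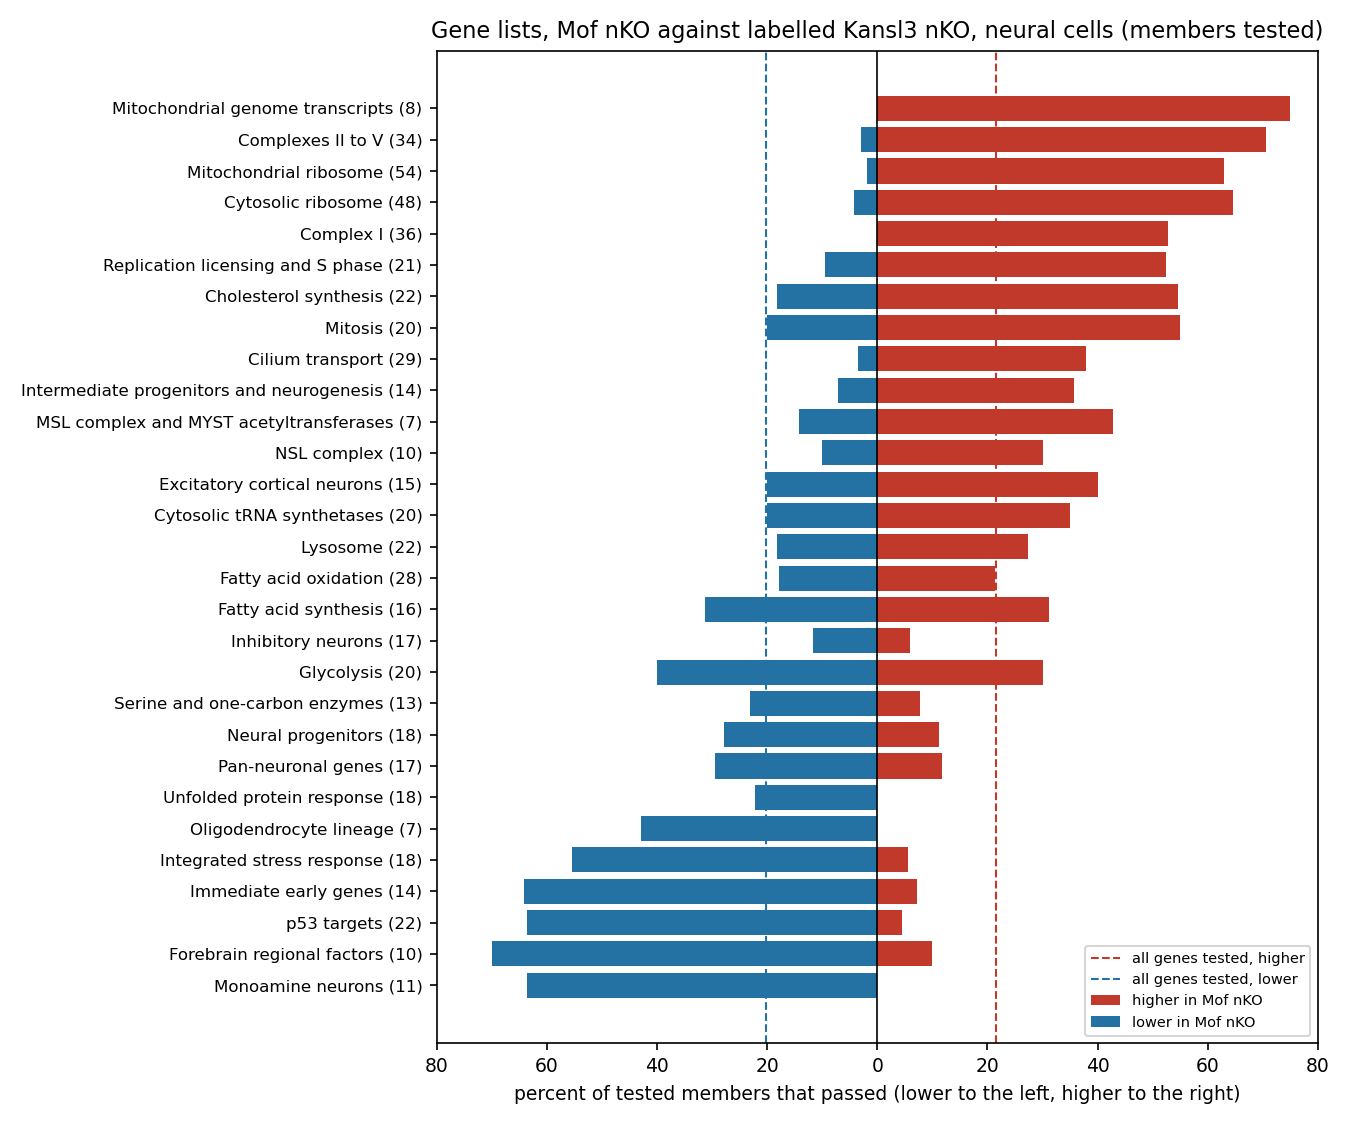
For each gene list, the percent of its tested members that passed as higher (right) and lower (left) in Mof nKO minus labelled Kansl3 nKO, beside the 21.5% and 20.3% of all genes tested. Mitochondrial and ribosomal lists extend to the higher side and p53 targets, stress-response, monoamine and forebrain lists to the lower side.

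Genes known to be activated by p53, the transcription factor that answers DNA damage and other stress, were lower in Mof nKO than in the libraries labelled Kansl3 nKO. Of 22 tested, 14 were lower and 1 was higher (median -0.57), against 20.3% lower and 21.5% higher among all genes. Cdkn1a, which encodes the cell cycle inhibitor p21, was at 35, 37.1 and 69.6 scaled reads in Mof nKO, 202, 138.8 and 193.3 in Kansl3 nKO and 11.2, 17.2 and 20.7 in Cre. Every Kansl3 nKO value exceeded every Mof nKO value, the log2 difference corresponded to 3.84-fold, and both groups lay above Cre (-1.94 ± 0.24, adjusted p = 0.000128). The zinc finger gene Zmat3 stood at 240.5, 246 and 351.4 against 897, 733 and 684, with Cre at 178 to 188.1. Its order of the 3 groups was that of Cdkn1a (-1.47 ± 0.14, adjusted p = 3.94e-05). The TNF receptor family member Eda2r stood at 286, 292.4 and 367 against 629.8, 560.3 and 792. All 6 libraries were above its Cre range of 40.9 to 50.2, with no overlap between the knockouts (-1.06 ± 0.13, adjusted p = 0.000116). Ccng1, which encodes cyclin G1, was at 688.8, 679 and 829.5 against 1327, 1181 and 1744, again both above Cre at 324 to 375 (-0.94 ± 0.12, adjusted p = 0.000175).

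Not every p53 target followed this order. Ei24, a gene of the endoplasmic reticulum, was at 343, 381 and 379 in Mof nKO and 552, 573 and 567 in Kansl3 nKO. The Mof nKO libraries lay below its Cre range of 414 to 449.7 and the Kansl3 nKO libraries above it (-0.62 ± 0.08, adjusted p = 0.000174). Mdm2, the ubiquitin ligase that limits p53, was at 1043, 1013 and 1024 against 1061, 1062 and 1216 and did not pass (-0.11 ± 0.07, adjusted p = 0.234), though it passed as lower under total-read scaling and with the gene-length trend removed. The exonuclease gene Aen was lower (-0.51 ± 0.10, adjusted p = 0.00191), as was Trp53inp1 (-0.32 ± 0.07, adjusted p = 0.00408). The 1 member called higher was Sesn1, a stress-induced inhibitor of mTORC1 signalling, at 366.2, 323 and 363 against 289, 298 and 299.6 (0.24 ± 0.09, adjusted p = 0.0422). Its adjusted p ran from 0.0385 to 0.144 with 1 library left out, lost without M643, M689, K3_349 or K3_356, and its difference turned to -0.14 under total-read scaling. Mdm2, Aen, Trp53inp1 and Sesn1 were chosen after their values were seen. In whole brain 8 of 22 p53 targets were lower and 0 higher by edgeR (median -0.25), where 7.27% of all genes tested were lower and 7.94% higher.

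Genes of the integrated stress response were also more often lower than higher: of 18 tested, 10 were lower and 1 was higher (median -0.30). In this program, cells short of amino acids or under mitochondrial or protein-folding stress use the factor ATF4 to switch on amino acid supply genes. ATF4 pairs with C/EBP proteins at a composite element called CARE, and 5 promoter stretches of members that match a CARE-like motif are shown because the values below belong to these genes. They are the enzyme Asns, the factor Atf3, the receptor Vldlr, the cystine transporter Slc7a11 and the glutathione-degrading enzyme Chac1. The sequences are from RefSeq on GRCm38.p6, 5′ to 3′ on the gene's strand, with the match to TGATGNAA or its reverse complement in capitals.
Asns (chr6:7693210-7693257, minus strand): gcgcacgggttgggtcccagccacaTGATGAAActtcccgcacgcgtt
Atf3 (chr1:191183411-191183468, minus strand): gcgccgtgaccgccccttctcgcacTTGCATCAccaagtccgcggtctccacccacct
Vldlr (chr19:27216795-27216852, plus strand): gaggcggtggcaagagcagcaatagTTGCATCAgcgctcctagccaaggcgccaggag
Slc7a11 (chr3:50443647-50443704, minus strand, the first of 2 matches in capitals): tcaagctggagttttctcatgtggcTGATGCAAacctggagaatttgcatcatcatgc
Chac1 (chr2:119351024-119351081, plus strand): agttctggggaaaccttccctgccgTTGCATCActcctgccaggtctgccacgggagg
Of the 20 list members matched to a RefSeq promoter (250 bases before to 50 after the gene start, both strands), 8 held this motif: Trib3, Chac1, Asns, Atf3, Nupr1, Slc7a11, Vldlr and Fgf21. Of all 27025 genes with such a promoter 4.51% held it in any of their promoters (3.97% of 32851 promoters). It lay in 0 of 46 matched mitochondrial ribosome genes and 0 of 32 matched complex I genes. An ETS motif, CCGGAAGT, lay in 1 of the 20, 7 of the 46 and 1 of the 32 (4.31% of all genes with a promoter). An NRF1 motif, GCATGCGC, lay in 0, 6 and 3 of them (3.05%). These shares of all genes take in genes not tested here, so no excess of a motif in a list is read from them. Matches of different motifs overlapped in 4 promoters of the whole table. The motifs were chosen after the data were seen, and a match is a description of these letters only. Shares over all genes higher or lower are not given, because fewer than 80% of those genes had a promoter in the table.

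Asns, asparagine synthetase, was at 336, 288 and 383 in Mof nKO and 453, 551 and 608 in Kansl3 nKO. Both groups lay above Cre at 157, 140.98 and 159 and did not overlap (-0.68 ± 0.12, adjusted p = 0.00102). Atf3 was at 99.1, 109.8 and 84.4 against 153, 171 and 214. Here the Mof nKO libraries lay within or above the Cre range of 81.8 to 88.4 and the Kansl3 nKO libraries well above it (-0.86 ± 0.15, adjusted p = 0.000862). Vldlr, a lipoprotein and reelin receptor, was at 655, 637 and 694 against 818, 825 and 811, with Cre at 561 to 672 (-0.31 ± 0.07, adjusted p = 0.00483). Slc7a11 was at 49.5, 74.3 and 66.2 against 90.9, 109.6 and 115 (-0.74 ± 0.18, adjusted p = 0.00576), without overlap. Chac1, at 88.2, 86.6 and 106 against 98.3, 112 and 101, overlapped between the groups and did not pass (-0.15 ± 0.14, adjusted p = 0.412), though it passed as lower under total-read scaling and with the gene-length trend removed. All 6 of its values stood above the Cre range of 26.9 to 35.2. The pseudokinase Trib3, whose promoter also matches, was at 7.25, 7.74 and 10.3 against 19.2, 15.3 and 24.3 (-1.120 ± 0.34, adjusted p = 0.0196). Its levels were low, and its adjusted p ran from 0.0165 to 0.0705 with 1 library left out, lost without M643, K3_349 or K3_366. Slc7a11, Trib3 and Chac1 were chosen after their values were seen.

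The window of Sesn2, a leucine sensor that both p53 and ATF4 can activate, holds no such match. Sesn2 was at 317, 326 and 390.2 in Mof nKO and 705, 636 and 890.3 in Kansl3 nKO. All 6 were above Cre at 95.8 to 109, and the log2 difference corresponded to 2.14-fold more in Kansl3 nKO (-1.10 ± 0.12, adjusted p = 7.22e-05). The amino acid transporter Slc7a5 was at 607, 541 and 607 against 870, 815 and 868, also above Cre at 235 to 291.6 in both (-0.54 ± 0.08, adjusted p = 0.000274). Atf4 itself stood at 3602, 3433 and 3081 in Mof nKO and 2729.7, 2882 and 3239 in Kansl3 nKO, overlapping, and did not pass (0.19 ± 0.08, adjusted p = 0.0741). Its difference turned to -0.19 under total-read scaling and -0.06 with the gene-length trend removed, and it passed as higher without library M689 or K3_366. Cebpg, a C/EBP partner of ATF4, was the 1 member called higher, at 1055, 1075 and 990.4 against 761, 798 and 918 (0.34 ± 0.08, adjusted p = 0.00599). That call was lost with the gene-length trend removed and turned to -0.05 under total-read scaling. Atf4 and Cebpg were chosen after their values were seen. In whole brain 6 of 18 members were lower and 0 higher (median -0.33), where 7.27% of all genes tested were lower.

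**Figure D3:**
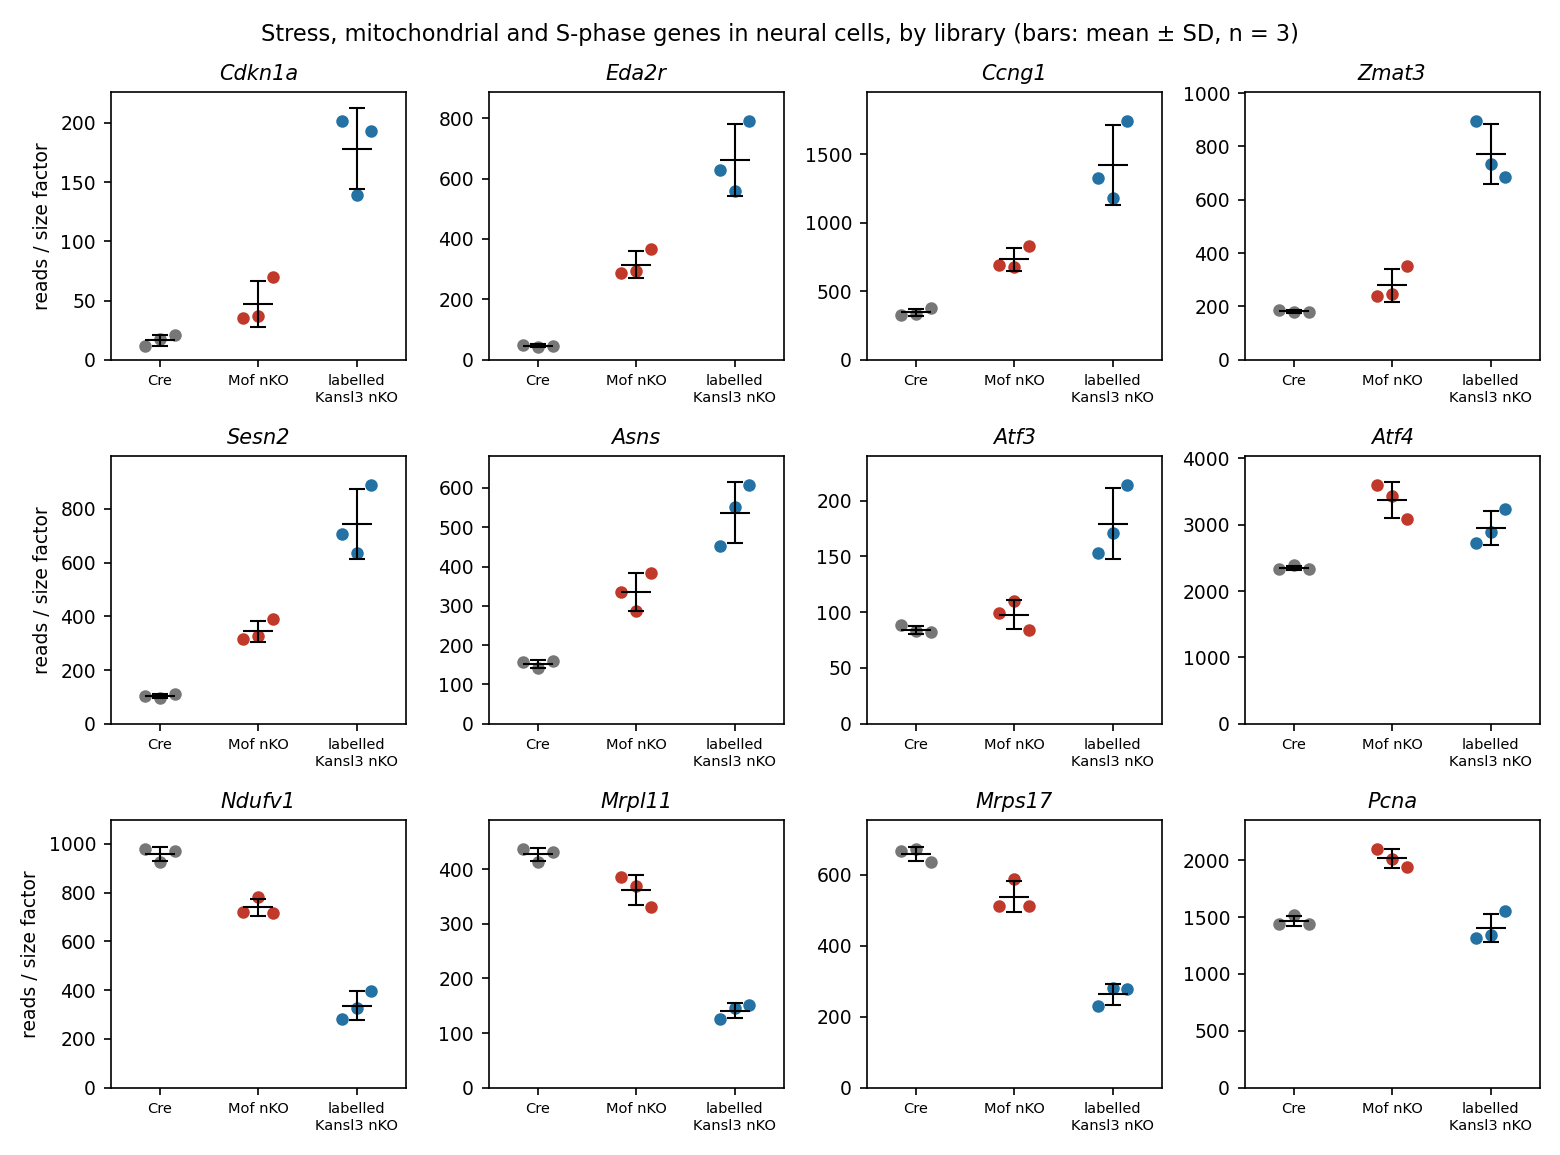
Scaled reads per library on a linear axis for p53 and stress-response genes, mitochondrial genes and the S phase gene Pcna. Each library is 1 point, for Cre, Mof nKO and labelled Kansl3 nKO. Cdkn1a reads 35.1 to 69.6 in Mof nKO and 138.8 to 201.8 in Kansl3 nKO, and Ndufv1 reads 717.7 to 781.3 against 281.6 to 398.3.

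Enzymes and chaperones often studied with this program moved less uniformly. In the unfolded protein response list, folding factors of the endoplasmic reticulum, 4 of 18 were lower and 0 higher, and 22.2% lower is near the 20.3% of all genes. The lower count was 12 under total-read scaling, 8 with the gene-length trend removed and 2 without library M643, M646 or K3_356. The chaperone Hsp90b1 was at 1785, 1756 and 1981 against 2358, 2315 and 2496 (-0.38 ± 0.07, adjusted p = 0.00135), and the disulfide isomerase Pdia3 was lower by a similar amount (-0.36 ± 0.08, adjusted p = 0.00414). In the serine and one-carbon list 3 of 13 were lower (6 under total-read scaling) and 1 higher, a lower share near that of all genes. Within it the mitochondrial folate enzyme Aldh1l2 was at 353, 258 and 350.3 against 568, 565 and 535 (-0.81 ± 0.11, adjusted p = 0.000251), and the serine synthesis enzyme Psat1 at 1135, 1264 and 1128 against 1455, 1491 and 1596 (-0.37 ± 0.07, adjusted p = 0.00198). Cytosolic tRNA synthetases split, with 7 of 20 higher (0 under total-read scaling, where the list turned) and 4 lower. The lower share of 20% is near the 20.3% of all genes, and 35% higher compares with 21.5%. Mars, which charges methionine tRNA, was lower, at 359, 338.8 and 394 against 537, 639 and 635 (-0.73 ± 0.09, adjusted p = 0.00017). The tyrosine enzyme Yars was lower too (-0.56 ± 0.08, adjusted p = 0.000238). The glutamine enzyme Qars was higher, at 267, 300.1 and 288 against 158, 189 and 183.2 (0.69 ± 0.11, adjusted p = 0.000434), as was the histidine enzyme Hars (0.47 ± 0.08, adjusted p = 0.000917), both lost under total-read scaling.

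Nuclear genes for complex I, which passes electrons from NADH to ubiquinone in the mitochondrial respiratory chain, were more often higher in Mof nKO. Of 36 tested 19 were higher (2 under total-read scaling, 12 with the gene-length trend removed) and 0 were lower, with 35 of 36 above zero and a median of 0.36. The NADH-binding subunit gene Ndufv1 was at 719, 781 and 718 in Mof nKO, 282, 327.98 and 398 in Kansl3 nKO and 980, 927 and 972 in Cre. Both knockouts lay below Cre, and the log2 difference corresponded to 2.22-fold more in Mof nKO (1.15 ± 0.11, adjusted p = 3.94e-05). Ndufs8, an iron-sulfur subunit, was at 196.98, 184.1 and 185 against 99, 103 and 108. Cre was higher than both, at 310.2 to 353 (0.86 ± 0.12, adjusted p = 0.000196). The accessory subunit Ndufa10 was at 692, 636 and 631 against 342, 390.1 and 443 (0.74 ± 0.10, adjusted p = 0.000174), and Ndufa9 differed by a similar amount (0.70 ± 0.12, adjusted p = 0.000658). The calls of Ndufa10 and Ndufa9 were lost under total-read scaling. In whole brain 7 of 36 complex I genes were higher and 0 lower (median 0.29), where 7.94% of all genes tested were higher.

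For complexes II to V 24 of 34 were higher (0 under total-read scaling, where the list turned, and 7 with the gene-length trend removed) and 1 was lower (median 0.31). Of all genes 21.5% were higher and 20.3% lower. With the gene-length trend removed 2538 of 13009 genes were higher, a share close to 7 of 34. The higher count was 13 without library M643, 10 without M646, 13 without K3_349 and 14 without K3_356. Sdhc, a membrane anchor of complex II, was at 512, 521 and 458 against 285, 309.7 and 393, with Cre above both at 600.5 to 611 (0.60 ± 0.11, adjusted p = 0.00135). Uqcrc2, a core subunit of complex III, was at 1097, 1058 and 993 against 710.3, 752 and 802 (0.48 ± 0.08, adjusted p = 0.000493). Atp5h of the ATP synthase was at 970.4, 981 and 853 against 562, 627 and 695 (0.58 ± 0.09, adjusted p = 0.000463). These 3 genes did not overlap between the knockouts and lost their calls under total-read scaling. In whole brain 1 of 34 was higher, under the 7.94% of all genes, and 0 were lower (median 0.27). The 1 member lower in neural cells was Sdha, the catalytic flavoprotein of complex II, at 353, 246 and 298 against 549, 474 and 421. The Mof nKO libraries lay below its Cre range of 377 to 426 and 2 of the 3 Kansl3 nKO libraries above it (-0.69 ± 0.13, adjusted p = 0.00128).

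Protein genes of the mitochondrial ribosome, which translates the genes of the mitochondrial genome, followed complex I. Of 54 tested 34 were higher (8 under total-read scaling, 24 with the gene-length trend removed) and 1 was lower (median 0.41). Mrpl11 was at 386, 369.8 and 331 in Mof nKO, 126, 146 and 151 in Kansl3 nKO and 438, 413 and 431 in Cre. The log2 difference corresponded to 2.56-fold more in Mof nKO, and both knockouts lay below Cre (1.36 ± 0.11, adjusted p = 2.74e-05). Mrps17 was at 512, 589 and 513 against 229.9, 282 and 278, with Cre at 638 to 674 (1.03 ± 0.10, adjusted p = 4.50e-05). Mrpl2 was at 214, 227 and 205 against 96.1, 97.2 and 136, with Cre at 245.4 to 280.2 (0.99 ± 0.14, adjusted p = 0.000288). Both repeat the order of Mrpl11. Mrpl20 (0.78 ± 0.10, adjusted p = 0.000141) and Mrpl24 (0.77 ± 0.09, adjusted p = 0.000107) were higher without overlap. The 1 lower member was Mrps6, named for that reason, at 102, 97.5 and 105 against 148, 128 and 156 (-0.50 ± 0.13, adjusted p = 0.00838). In whole brain 16 of 54 were higher and 0 lower (median 0.41), where 7.94% of all genes tested were higher.

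Protein genes of the cytosolic ribosome gave a less stable count. Of 48, 31 were higher (0 under total-read scaling, where the list turned, and 6 with the gene-length trend removed) and 2 were lower (median 0.30). The 6 of 48 lie under the share of all genes in that setting, 2538 of 13009. The higher count was 16 without library M643, 19 without M646, 19 without K3_349 and 20 without K3_356. Rps4x was at 6841, 6899.9 and 6250.5 against 4036, 4628 and 5169, with Cre at 4979 to 5276 (0.54 ± 0.09, adjusted p = 0.000631). Mof nKO lay above Cre, and Kansl3 nKO reached from below into the Cre range. Rpl14 showed the same order (0.42 ± 0.08, adjusted p = 0.0017), and both calls were lost under total-read scaling. The 2 lower members, named for that reason, were Rpl11 (-0.37 ± 0.10, adjusted p = 0.0122) and Rps16, at 25.4, 34 and 29.7 against 56.9, 53.3 and 42.7 (-0.76 ± 0.22, adjusted p = 0.0135). The adjusted p of Rps16 ran from 0.00947 to 0.0646 with 1 library left out, lost without M643, K3_349 or K3_356. In whole brain 3 of 48 were higher, under the 7.94% of all genes, and 0 lower (median 0.21). Ribosomal protein genes have many processed copies, and how reads shared with copies were counted is not stated.

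Transcripts of the mitochondrial genome differed in the same direction in neural cells. Only 8 of the 13 listed reached the level tested, and mt-Co2, mt-Co3, mt-Atp6, mt-Atp8 and mt-Nd4l did not. The tested genes are thus a part of the mitochondrial genome. Of the 8 tested, 6 were higher (0 under total-read scaling) and 0 lower (median 0.40). All mitochondrial transcripts, ribosomal RNAs included, held 0.430 to 0.477% of reads in Mof nKO and 0.312 to 0.335% in Kansl3 nKO. Of all reads, mt-Rnr1 took 0.032 to 0.0509% in Mof nKO and 0.0149 to 0.016% in Kansl3 nKO. The shares of mt-Rnr2 were 0.0651 to 0.1% and 0.0383 to 0.0412%. The cytochrome oxidase gene mt-Co1 was at 29238, 30214 and 25646 against 17148, 17928 and 19030, with Cre at 22748 to 25754 (0.65 ± 0.09, adjusted p = 0.00029). The complex I gene mt-Nd5 was at 389, 336 and 438 against 242, 219.9 and 237 (0.73 ± 0.11, adjusted p = 0.000329), and mt-Nd4 was higher likewise (0.62 ± 0.10, adjusted p = 0.000461). The knockouts did not overlap for these 3 genes, whose calls were lost under total-read scaling.

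The mitochondrial ribosomal RNAs differed by more. The small subunit RNA mt-Rnr1 was at 5294, 5811 and 2874 against 1231, 1167 and 1278 (1.86 ± 0.19, adjusted p = 4.56e-05), and the large subunit RNA mt-Rnr2 at 10403, 11215 and 5855 against 3047, 3224 and 3092 (1.497 ± 0.17, adjusted p = 9.86e-05). Library M689 was lowest of the Mof nKO libraries and lay within the Cre ranges of 2021 to 3839.6 and 4653 to 7996. The same library had the lowest Mof nKO share of Rn18s-rs5, whose own difference of 1.70 ± 0.43 (adjusted p = 0.00751) was lost without library M646 or K3_356. How far ribosomal RNA was removed from each library is not stated, and its part in these differences was not tested. In whole brain 0 of the 8 protein-coding transcripts were higher and 2 were lower (median -0.30). Mitochondrial transcripts held 19.3 to 25.3% of reads in the whole-brain libraries, against 0.312 to 0.477% in the neural knockout libraries. The part of this unequal share in the values below was not tested. For 3 of the 8 the difference between neural cells and whole brain itself passed, in a test that 0.223% of all genes passed as higher and 0.843% as lower.

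Carbon metabolism was mixed. Of 20 glycolysis genes 6 were higher (0 under total-read scaling, 1 with the gene-length trend removed) and 8 lower. These are 30% and 40%, against 21.5% and 20.3% of all genes. Among the lower genes were the early enzymes hexokinase Hk1, at 138.98, 111 and 153 against 293, 257.1 and 242 (-0.98 ± 0.13, adjusted p = 0.000212), and phosphofructokinase Pfkp, at 196.98, 176 and 220.2 against 391.8, 368 and 342 (-0.89 ± 0.11, adjusted p = 0.000109). The isomerase Gpi1 (-0.64 ± 0.08, adjusted p = 0.000176) and the lactate dehydrogenase Ldhb (-0.56 ± 0.08, adjusted p = 0.00033) were lower as well. Pkm, the pyruvate kinase at the end of the pathway, was higher, at 13344, 13557 and 12415 against 8188, 8265 and 9635 (0.59 ± 0.08, adjusted p = 0.000264), a call lost under total-read scaling.

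For cholesterol synthesis 12 of 22 were higher (0 under total-read scaling, where the list turned, and 6 with the gene-length trend removed) and 4 lower. Fdft1, which makes squalene, was at 1292, 1255 and 1278 against 854, 915 and 946, with Cre at 1083 to 1250.5 (0.49 ± 0.07, adjusted p = 0.000253). The feedback protein Insig1 was at 1723, 1697 and 1677 against 942, 1215 and 1225 (0.60 ± 0.09, adjusted p = 0.000426), and the farnesyl diphosphate synthase Fdps was higher as well (0.69 ± 0.14, adjusted p = 0.00213). These 3 calls were lost under total-read scaling. Srebf2, which encodes the transcription factor of this pathway, went the other way, at 1037, 1068 and 1134 against 1489, 1406 and 1282 (-0.37 ± 0.08, adjusted p = 0.00241).

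Fatty acid oxidation genes passed about as often as all genes. Of 28, 6 were higher (21.4%; 1 under total-read scaling, where the list turned) and 5 lower (17.9%), with 4 higher without library M643, M646 or K3_349 and 11 without K3_366. Slc25a20, the carnitine carrier of the inner mitochondrial membrane, was at 90.6, 142.3 and 118 in Mof nKO and 42.9, 54.1 and 57.7 in Kansl3 nKO. Both lay below Cre at 217 to 233 (1.15 ± 0.19, adjusted p = 0.00061). Acadl, the long-chain acyl-CoA dehydrogenase, was lower, at 20.5, 17 and 19.4 against 52.5, 45.3 and 53.6 (-1.36 ± 0.22, adjusted p = 0.000585), and so was Hadh (-0.84 ± 0.17, adjusted p = 0.00196). Of 16 synthesis genes 5 were higher (0 under total-read scaling; 3 without library M643 or K3_349) and 5 lower. Fasn, fatty acid synthase, was at 4625, 4809.8 and 5017 against 6312, 6295 and 6131. Both groups lay above its Cre range of 3541 to 3799 (-0.38 ± 0.07, adjusted p = 0.000986). Srebf1, which encodes an activator of this pathway, was higher, at 610.3, 640.5 and 585 against 457, 394 and 454 (0.49 ± 0.09, adjusted p = 0.000797). The elongase Elovl1 was higher (1.06 ± 0.24, adjusted p = 0.00444) and the acyl-CoA synthetase Acsl4 lower (-0.76 ± 0.11, adjusted p = 0.000295). Total-read scaling ended the calls of Srebf1 and Elovl1.

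Proliferation genes were more often higher than lower in Mof nKO, with counts that fell when any of several libraries was left out. In the S phase list 11 of 21 were higher (0 under total-read scaling, where the list turned, and 6 with the gene-length trend removed) and 2 lower. The higher count was 5 without library M643, 7 without M646, 7 without K3_349 and 6 without K3_356. In the same refits the higher calls over all genes fell from 3013 to 2070, 2130, 2116 and 2120. Pcna, the sliding clamp of DNA polymerase, was at 2100.4, 2006 and 1938 against 1316, 1346 and 1549, with Cre at 1440 to 1514 (0.52 ± 0.08, adjusted p = 0.000317). Ccne2, which encodes cyclin E2, was at 299.7, 323 and 248 against 178, 189 and 186 (0.64 ± 0.11, adjusted p = 0.000869). Subunits of the replicative helicase went in both directions, with Mcm7 higher (0.39 ± 0.07, adjusted p = 0.00094) and Mcm4 lower, at 527, 472 and 448 against 629, 655 and 644 (-0.42 ± 0.08, adjusted p = 0.00179). Under total-read scaling the calls of Pcna and Ccne2 were lost and the sign of Mcm7 turned.

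In the mitosis list 11 of 20 were higher (0 under total-read scaling, where the list turned, and 6 with the gene-length trend removed) and 4 lower. The lower share of 20% is near the 20.3% of all genes, and 55% higher compares with 21.5%. There were 6 higher without library M643, 5 without M646 and 6 without K3_356. The spindle gene Nusap1 was at 1105, 1033 and 958 against 728.8, 714 and 747 (0.50 ± 0.07, adjusted p = 0.000365), and the anaphase activator Cdc20 (0.47 ± 0.09, adjusted p = 0.00143) and the motor Kif11 (0.45 ± 0.09, adjusted p = 0.00169) were higher by similar amounts. These 3 calls were lost under total-read scaling. The kinetochore gene Cenpf was lower, at 865, 967 and 884 against 1532, 1355 and 1135, with both above Cre at 737 to 767 (-0.56 ± 0.10, adjusted p = 0.000901). In whole brain 15 of 21 S phase genes (median 0.55) and 17 of 20 mitosis genes (median 0.63) were higher and 0 were lower. Of all genes tested there 7.94% were higher.

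Lists of cell identity held calls in both directions. Among excitatory cortical neuron genes 6 of 15 were higher (2 under total-read scaling, where the list turned) and 3 lower. The lower share of 20% is near the 20.3% of all genes, and 40% higher compares with 21.5%. The cortical differentiation factor Neurod2 was at 2433, 2409 and 2581 against 1271, 1450 and 1391. Its Cre range of 1652 to 1964 lay between the knockouts (0.85 ± 0.07, adjusted p = 2.74e-05). Neurod6, a related factor, was at 2498, 2443 and 2386 against 1300.2, 1514 and 1422, with Cre at 1482 to 1983 (0.79 ± 0.07, adjusted p = 3.45e-05). Reln, the secreted guidance protein of Cajal-Retzius cells, was lower in Mof nKO, at 4180.2, 4099.7 and 4355 against 7994, 6485 and 7439. Both groups lay above Cre at 2992 to 3767 (-0.79 ± 0.08, adjusted p = 5.62e-05). In the intermediate progenitor list 5 of 14 were higher (35.7%; 0 under total-read scaling, where the list turned) and 1 lower (7.14%). Insm1 was at 1218, 1264 and 1297 against 829, 841 and 993 (0.51 ± 0.08, adjusted p = 0.000492), and Neurod1 (0.51 ± 0.08, adjusted p = 0.000549) and Sstr2 (0.67 ± 0.08, adjusted p = 9.74e-05) were higher too, all 3 calls lost under total-read scaling.

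Neural progenitor genes were lower in 5 of 18 and higher in 2. The lower count was 10 under total-read scaling, where 6010 of all 14078 genes were lower. It was 8 with the gene-length trend removed, where 2413 of 13009 were lower. There were 0 higher without library M643 or M646, 1 without K3_349 or K3_356, 4 without M689 and 7 without K3_366. The receptor Notch1 was at 1946, 2087 and 1976 against 2860.5, 2796 and 2581. The Mof nKO libraries lay at or just above its Cre range of 1900.5 to 1979 and the Kansl3 nKO libraries well above it (-0.45 ± 0.07, adjusted p = 0.00037). Among radial glia genes, Hopx was at 52, 58.8 and 58.2 against 101, 85.5 and 126 (-0.86 ± 0.17, adjusted p = 0.00193), and Sox9 (-0.39 ± 0.09, adjusted p = 0.00614) and Vim (-0.33 ± 0.09, adjusted p = 0.0102) were lower too. Pan-neuronal genes were lower in 5 of 17 (10 under total-read scaling, 2 without library M643 or M646, 3 without K3_349 or with the gene-length trend removed) and higher in 2 (7 with that trend removed, 4 without K3_366). Syn1, which encodes a synaptic vesicle protein, was at 54.4, 34 and 60.5 against 126, 115 and 95.4 (-1.19 ± 0.21, adjusted p = 0.000901), and Syt1 was lower (-0.49 ± 0.08, adjusted p = 0.000451), a call lost with the gene-length trend removed. Nsg2 was higher, at 7079, 6781 and 7217 against 4335, 4704 and 5363 (0.55 ± 0.08, adjusted p = 0.00034), as was the neuronal tubulin Tubb3 (0.33 ± 0.08, adjusted p = 0.00702). Under total-read scaling the call of Nsg2 was lost and Tubb3 turned to -0.05, and Tubb3 no longer passed with the gene-length trend removed. Among 17 inhibitory neuron genes 1 was higher and 2 lower. The lower count was 8 under total-read scaling, near the share of all genes in that setting (6010 of 14078). It was 5 with the gene-length trend removed, and 0 genes passed without library M646, K3_349 or K3_356.

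Monoamine neuron and regional genes leaned lower. Of 11 monoamine genes 7 were lower and 0 higher (median -0.66), with 4 lower without library M643, K3_349 or K3_366. The 7 are 63.6%, against 20.3% lower among all genes. The vesicle transporter Slc18a2 was at 72.5, 77.4 and 77.6 against 115, 116 and 105. Both knockouts were far below Cre at 245.4 to 292.04 (-0.56 ± 0.14, adjusted p = 0.00599). Lmx1b, a factor of dopamine and serotonin neurons, was low in all libraries, at 12.1, 7.74 and 6.85 against 31, 19.7 and 23.4 (-1.39 ± 0.34, adjusted p = 0.00618). Gata2 was at 38.7, 21.7 and 22.8 against 49.5, 58.4 and 55.2 (-0.99 ± 0.24, adjusted p = 0.00635). Of 10 forebrain regional factors 7 were lower and 1 higher, with 3 lower without library M646 and 4 without M689 or K3_349. Tcf7l2, a thalamic factor, was at 271, 213 and 288 against 629, 579 and 428 (-1.07 ± 0.14, adjusted p = 0.000177), and Lhx9 was lower by less (-0.31 ± 0.07, adjusted p = 0.00305). Emx1, a factor of the dorsal telencephalon, was higher, at 638, 690 and 597 against 373, 413 and 469, a call lost under total-read scaling (0.62 ± 0.10, adjusted p = 0.000428). In whole brain 0 of the 11 monoamine and 0 of the 10 regional genes passed by edgeR, 0 and 0 passed by DESeq2, and 0 and 2 had an unadjusted p under 0.05 by edgeR. No hindbrain Hox gene reached the level tested, and how the brains were dissected is not stated.

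Of 7 oligodendrocyte lineage genes 3 were lower and 0 higher (1 lower without library M646 or K3_349). The 3 are 42.9%, against 20.3% lower among all genes. The proteoglycan gene Cspg4, which pericytes also express, was at 14.502, 18.6 and 18.3 against 51.7, 34.3 and 53.6 (-1.37 ± 0.26, adjusted p = 0.00133). Immediate early genes, which cells switch on within minutes of stimulation, were lower in 9 of 14 and higher in 1 (4 lower without library K3_356 or K3_366, 5 without M689). Egr1 was at 531, 481 and 571.6 against 894, 966 and 789.9, with Cre at 437 to 553 (-0.74 ± 0.09, adjusted p = 0.000145). Fosb was at 242, 229 and 217 against 346, 415 and 413. The Mof nKO libraries lay below its Cre range of 336 to 396 and the Kansl3 nKO libraries within or just above it (-0.77 ± 0.10, adjusted p = 0.000175). Handling times at dissociation and sorting are not given.

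Genes of cilium assembly and transport were higher in 11 of 29 (1 under total-read scaling, where the list turned) and lower in 1 (median 0.30). The transition zone gene B9d1 was at 70.1, 63.4 and 79.9 against 25.9, 34.3 and 43.5, with Cre above both at 108 to 115 (1.04 ± 0.22, adjusted p = 0.00241). The intraflagellar transport gene Ift22 was at 131, 139.2 and 139.2 against 76.1, 84.7 and 103 (0.64 ± 0.14, adjusted p = 0.00383). Ift74 (0.45 ± 0.11, adjusted p = 0.00556) and Ift88 (0.52 ± 0.13, adjusted p = 0.00683) were higher as well. For these 3 genes Mof nKO lay between Kansl3 nKO and Cre, and the calls were lost under total-read scaling. The 1 lower member was Ift80, named for that reason (-0.42 ± 0.14, adjusted p = 0.0256), with an adjusted p of 0.025 to 0.0894 with 1 library left out, lost without M689, K3_356 or K3_366 and with the gene-length trend removed.

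Lysosomal genes were higher in 6 of 22 (2 under total-read scaling, where the list turned) and lower in 4, shares near those of all genes. In whole brain 1 of 22 was higher and 9 were lower (median -0.30), where 7.94% of all genes tested were higher and 7.27% lower. For 4 of 22 lysosomal genes the difference between neural cells and whole brain itself passed, against 1.07% of all genes. The protective protein gene Ctsa was at 208, 234 and 251 against 129, 119.8 and 125, with Cre at 314 to 369 (0.88 ± 0.11, adjusted p = 0.000166), and the hexosaminidase gene Hexa was higher (0.58 ± 0.12, adjusted p = 0.00292), a call lost under total-read scaling. Gusb, which encodes beta-glucuronidase, was lower, at 16.9, 21.7 and 18.3 against 45.1, 43.1 and 41.8 (-1.16 ± 0.23, adjusted p = 0.0019).

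The 12 genes with the highest differences, among genes that passed with a mean of at least 50 and no overlap, opened with Snord17, a small nucleolar RNA. Snord17 was at 390.3, 342 and 332 in Mof nKO, 34.7, 51.9 and 67.8 in Kansl3 nKO and 77.2, 58.1 and 68.1 in Cre. The Mof nKO libraries stood far above Cre and the Kansl3 nKO libraries within or below it (2.81 ± 0.19, adjusted p = 9.39e-06). Car14, a membrane carbonic anhydrase, was at 152, 173.3 and 171 against 49.5, 40.9 and 35.1. Its Cre values of 76.4, 56 and 60.3 lay between the knockouts (1.97 ± 0.16, adjusted p = 2.74e-05). The peptidase Dpp7 was at 131, 128 and 103 against 28.1, 35.1 and 30.1, with Cre at 208 to 218 (1.92 ± 0.18, adjusted p = 3.78e-05). The galactosidase-like Glb1l was at 111, 118 and 124 against 28.1, 39.4 and 30.1, with Cre at 157 to 221 (1.84 ± 0.18, adjusted p = 4.33e-05). Both were below Cre in the 2 knockouts and lowest in Kansl3 nKO, and so were the kinase Tyk2 (1.64 ± 0.21, adjusted p = 0.000161), Ttc27 (1.44), Dhrs1 (1.42) and Zfp729b (1.82). PISD (1.58), for which library M646 reached the Cre range, Rn18s-rs5, mt-Rnr1 and mt-Rnr2 completed the 12. Zfp729b and PISD have close relatives or copies that can share reads. The strand setting of the counting is not stated, so overlapping and antisense genes cannot be told apart.

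The 12 lowest differences were led by the noncoding RNA Pvt1, at 21.8, 15.5 and 30.8 in Mof nKO, 96.8, 84 and 119.7 in Kansl3 nKO and 14.2, 10.8 and 11.2 in Cre (-2.13 ± 0.25, adjusted p = 9.74e-05). Ptpn14, a tyrosine phosphatase, was at 18.1, 23.2 and 35.4 against 99, 76.7 and 94.6, with Cre at 11.8 to 17.2 (-1.82 ± 0.24, adjusted p = 0.000179). Zfp365 was at 30.2, 21.7 and 25.1 against 93.1, 80.4 and 99.6, with Cre at 17.2 to 25.5 (-1.79 ± 0.20, adjusted p = 7.83e-05). For these 3 genes the Kansl3 nKO libraries stood well above Cre and the Mof nKO libraries nearer to it. Fgf15, a growth factor gene, was at 106, 91.3 and 113 against 384, 273 and 321, with Cre at 65.9 to 86.1 (-1.64 ± 0.14, adjusted p = 2.74e-05). The GABA receptor subunit Gabra3 was at 25.4, 23.2 and 47.9 against 119.7, 115 and 87.9 (-1.77 ± 0.25, adjusted p = 0.000268). The imprinted gene Peg10 was at 378, 449 and 571 against 1677, 1293 and 1044 (-1.51 ± 0.16, adjusted p = 6.05e-05), and the midbrain-hindbrain factor Pax5 was lower too (-1.52 ± 0.21, adjusted p = 0.000253). Cdkn1a, Gng12 (-1.69), Syne1 (-1.64), Hmcn1 (-1.55) and Hpcal1 (-1.52) completed the 12.

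The same contrast in whole brain shares no library with the neural one. There 1245 of 15689 genes were higher in Mof nKO (7.94%) and 1141 lower (7.27%) by edgeR. Of the neural genes higher and tested there, 886 of 2969 passed the same way and 8 the opposite way. The 886 are 29.8% of the neural list and 73.4% of the whole-brain list of 1207. Of those lower, 585 of 2715 passed the same way and 25 the opposite way. The 585 are 21.5% of the neural list and 65.8% of the whole-brain list of 889. The sign was the same for 92.7% of the higher and 83.4% of the lower genes, against 75.5% of all 13345 genes tested in both. Across those genes, which are not independent replicates, Pearson's r was 0.64 and Spearman's rho 0.67. The whole-brain calls rested on single libraries, with 418 without K3_149, 1050 without K3_119 and 1281 without K3_117, against 2386 with all.

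Of the 12 highest neural genes, 11 could be tested in whole brain, where 7 passed the same way and 1 the opposite way. Car14 stood at 104, 133.8 and 78.9 scaled counts in whole-brain Mof nKO and 11.2, 26.2 and 11.1 in Kansl3 nKO. It was higher without overlap (2.70 ± 0.32, adjusted p = 0.00401). Snord17, at 255, 174 and 192 against 179, 300.4 and 216, did not pass (-0.17 ± 0.19, adjusted p = 0.56). The gene that passed the opposite way was mt-Rnr1 (-0.56 ± 0.16, adjusted p = 0.0393). Of the 12 lowest genes 8 passed the same way. Cdkn1a stood at 118.8, 106.6 and 98.2 in whole-brain Mof nKO and 176, 149.6 and 226 in Kansl3 nKO (-0.78 ± 0.17, adjusted p = 0.0149). Pvt1 (-1.55 ± 0.25, adjusted p = 0.00634) and Zfp365 (-1.16 ± 0.21, adjusted p = 0.00809) were lower there too. Kat8 was at 106, 92 and 99.1 against 109, 102 and 95.7 in whole brain and did not pass (-0.06 ± 0.15, adjusted p = 0.825).

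**Figure D4:**
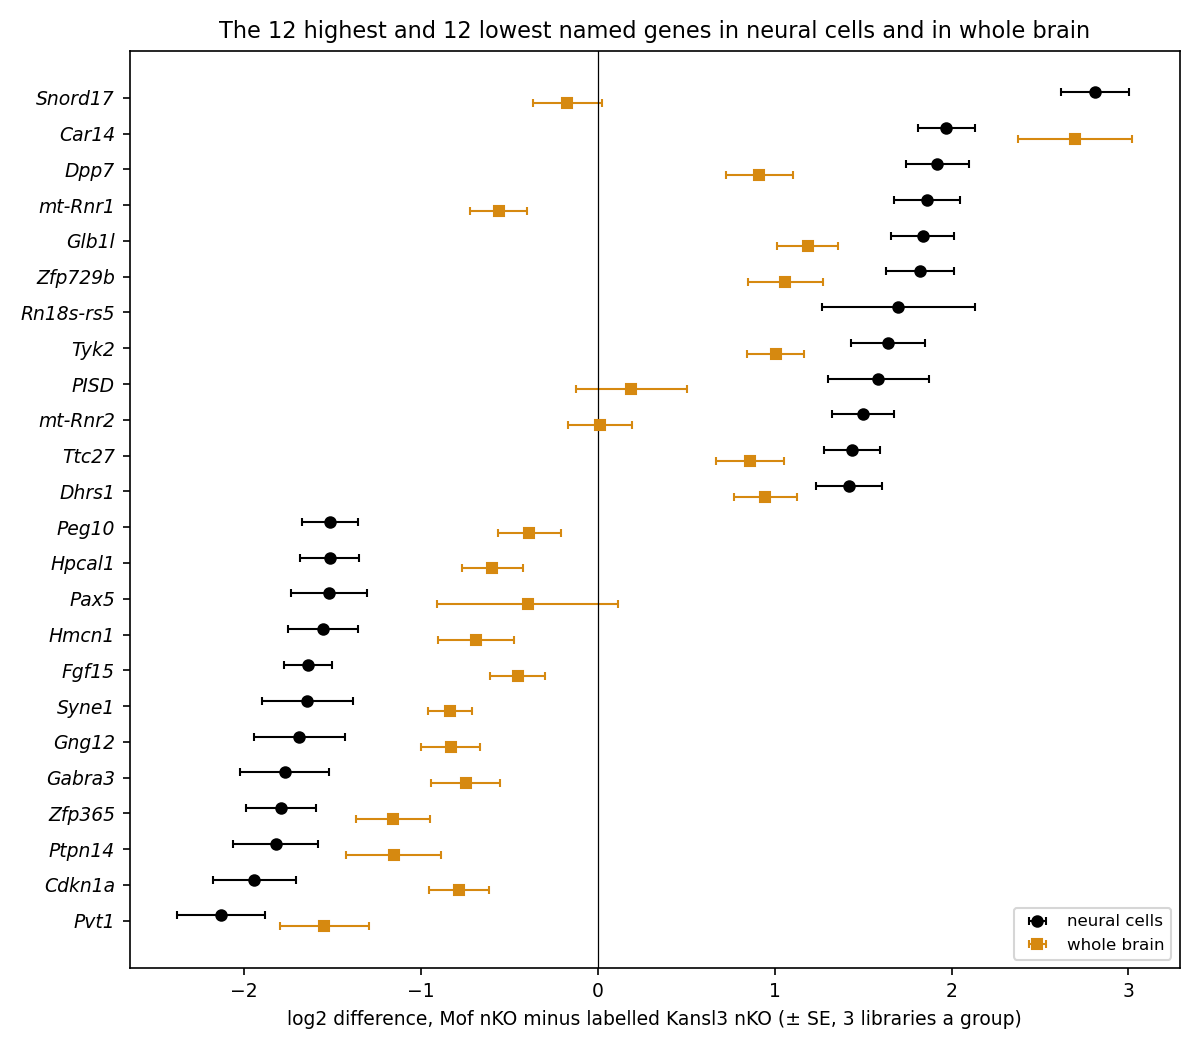
Log2 difference of Mof nKO minus labelled Kansl3 nKO in neural cells and in whole brain for named genes, with bars for the SE. The whole-brain SE is approximate, derived from the edgeR F statistic. Cdkn1a lies at -1.94 in neural cells and -0.78 in whole brain, while Snord17 lies at 2.81 and -0.17.

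The difference of the contrast between neural cells and whole brain was itself tested in a model over 12 libraries. It passed for 33 genes in the higher direction (0.223% of 14826) and 125 in the lower direction (0.843%). Together these were 1.07% of the genes tested. That share was 0.408, 0.153 and 1.63% without neural library M643, M646 and M689. It was 0.182, 0.135 and 2.46% without K3_349, K3_356 and K3_366. Leaving out whole-brain library Mof_200 gave 1.65%, K3_119 0.156% and K3_149 0.177%. For Snord17 the neural difference exceeded the whole-brain one by 2.98 ± 0.31, adjusted p = 0.000216. For Fgf15 (-1.19 ± 0.22, adjusted p = 0.02) and Mcm4 (-0.91 ± 0.15, adjusted p = 0.0114) the neural difference was the lower one. Of the p53, stress-response, complex I and mitochondrial ribosome lists 0 members passed this test by limma, Cdkn1a included (-1.18 ± 0.33, adjusted p = 0.0893). In other lists 5 of 20 mitosis, 5 of 22 cholesterol synthesis, 4 of 22 lysosome, 3 of 16 fatty acid synthesis, 2 of 21 S phase and 2 of 20 tRNA synthetase genes passed, against 1.07% of all genes. So did 1 of 18 neural progenitor and 1 of 14 intermediate progenitor genes. For the p53, stress-response, complex I and mitochondrial ribosome lists, at an unadjusted p under 0.05 by limma the numbers were 5 of 22, 3 of 18, 2 of 36 and 8 of 54. Other lists also held 0 members that passed, among them complexes II to V, cytosolic ribosome, cilium transport, glycolysis, monoamine and forebrain lists.

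Gene length separated the genes that passed. The median genomic span in RefSeq on GRCm38.p6, which matched 92.9% of the genes tested, was 13.0 kb for genes higher in Mof nKO, 70.2 kb for genes lower and 23.9 kb for the rest. Over 5 equal groups of genes from the shortest to the longest span, the median neural difference was 0.26, 0.18, 0.08, -0.09 and -0.31. In the shortest group (up to 7.67 kb) 35.6% of genes were higher and 5.42% lower. In the longest (from 80.03 kb) 5.84% were higher and 47.2% lower. Of 2049 tested genes of at least 100 kb, 113 were higher and 1024 lower. The whole-brain medians over the same groups were 0.20, 0.15, 0.06, -0.04 and -0.18. Syne1, which encodes a giant nuclear envelope protein, is a long gene that was lower, at 52, 21.7 and 34.2 against 123, 103 and 98.7 (-1.64 ± 0.26, adjusted p = 0.000448). This relation was looked at after the data were seen, no measure of RNA quality was given, and the part of span in the differences was not tested. With the trend on span removed 2538 genes were higher and 2413 lower, and 18 of 22 p53 targets and 12 of 18 stress-response genes were lower.

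**Figure D5:**
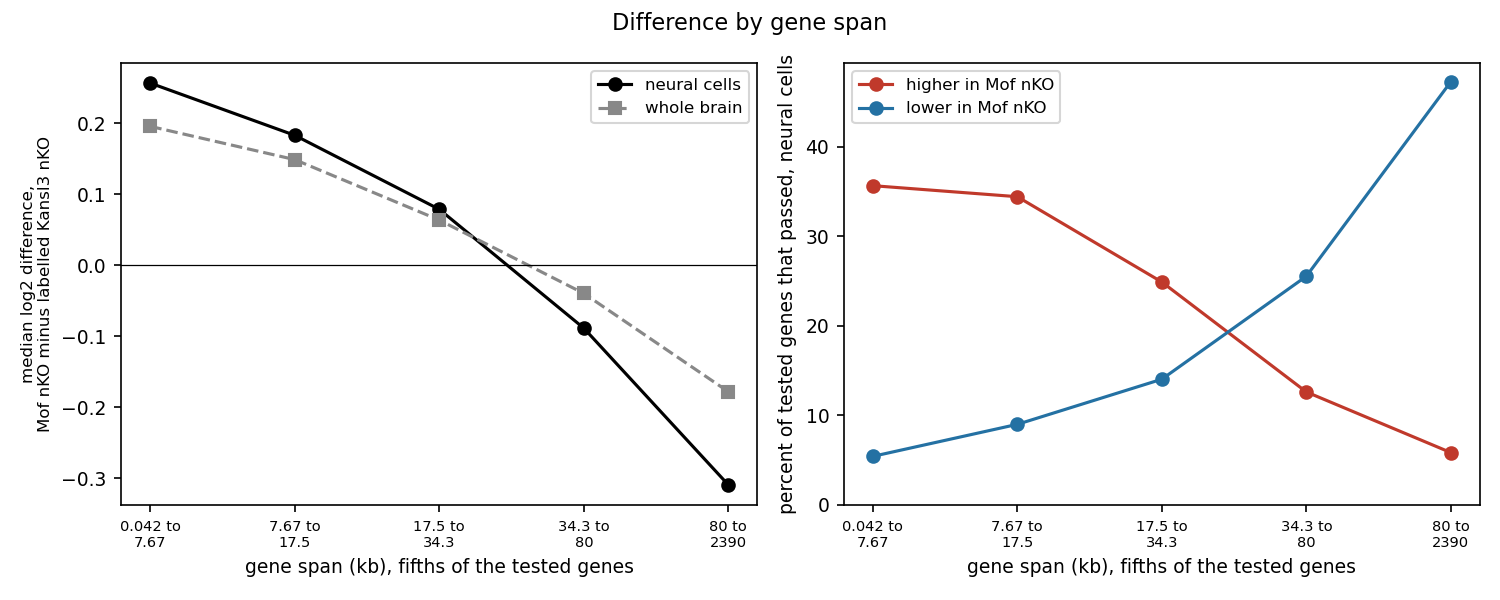
Median log2 difference of Mof nKO minus labelled Kansl3 nKO (vertical axis) over 5 groups of genes by RefSeq genomic span, for neural cells and whole brain. The neural medians fall from 0.26 in the shortest to -0.31 in the longest group, and the whole-brain medians from 0.20 to -0.18.

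The authors' own comparisons with Cre share the 3 control libraries and place each knockout against its control. In the authors' deposited table Cdkn1a had a log2 fold change over Cre of 1.58 in Mof nKO and 3.46 in Kansl3 nKO. Sesn2 had 1.78 and 2.86, and Asns 1.17 and 1.82, in the authors' deposited table. For Atf3 the authors' deposited table gives 0.23 in Mof nKO and 1.09 in Kansl3 nKO. Ndufv1 is listed at -0.35 and -1.51 and Mrpl11 at -0.21 and -1.60 in the authors' deposited table. For Snord17 the authors' deposited table has 2.41 in Mof nKO and -0.41 in Kansl3 nKO, and for Kat8 it has -1.44 and -1.17.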

How the data were processed

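RNA sequencing of neural cells and whole brain was used. The submitters' processing notes name STAR, featureCounts and DESeq2 and the build mm10, with versions not stated. The deposited neural tables hold a signal per Ensembl gene, read counts that the authors divided by library size factors, separately in each table. The deposited whole-brain table holds counts. The authors' deposited comparison tables hold log2 fold changes and adjusted p-values against Cre. Dividing every column by the worth of 1 read restored whole reads for 100% of values (tolerance 0.01). The neural tables were joined by Ensembl id, with symbols from the tables, and the 6 knockout libraries were scaled together by median of ratios. Cre libraries were put on the same reference for description. Among 15 pairs within groups none was a duplicate.

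The main test was limma 3.58.1 (trend) on log2(scaled reads + 1), keeping genes whose mean reached 10, with Benjamini-Hochberg adjustment. This scale understates folds of low genes. A ± gives the SE, with n = 3 per group. Whole brain was tested with edgeR 4.0.16 (TMM, filterByExpr, quasi-likelihood F), and the difference of the contrasts with limma over 12 libraries. For edgeR values the ± is an approximate SE, the absolute log2 difference divided by the square root of F. The method was tested on simulated data. Named genes were the targeted genes, the 12 highest and 12 lowest that passed (mean of 50 or more, no overlap, no predicted or sex-linked genes) and up to 5 members per list with the smallest p. Some genes that the rule names are not reported here. Others are said to be chosen after their values were seen. The comparison, the 30 gene lists and the 7 marker lists were chosen with earlier results of these data known. Alternatives were edgeR and DESeq2 1.42.0 on recovered reads, other scalings, pseudocounts and filters, the Cre libraries in the fit and leaving out each library. Totals without Rn18s-rs5 and removal of a lowess trend on gene span were added after seeing the data. Software was R 4.3.3 and Python 3.11.15 with pandas 2.3.3 and numpy 2.4.6. Chromatin samples, other cell types, Kansl2 knockouts and whole-brain Cre libraries were not analysed here.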

Additional observations from a re-analysis of the deposited data

Results flagged for a closer look

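For 16 named genes the difference between Mof nKO and labelled Kansl3 nKO was not the same in neural cells as in whole brain, by the model over 12 libraries with Benjamini-Hochberg adjustment by limma. Each value is the neural log2 difference minus the whole-brain one, and the calls depend on single libraries as given in the report. Among RNAs of the ribosome and nucleolus the values were 2.44 ± 0.30 for mt-Rnr1 (adjusted p = 0.00145), 1.49 ± 0.33 for mt-Rnr2 (adjusted p = 0.0420) and 2.98 ± 0.31 for Snord17 (adjusted p = 0.000216). The mitochondrial transcripts mt-Nd5 and mt-Nd4 had 1.28 ± 0.22 (adjusted p = 0.0164) and 1.21 ± 0.19 (adjusted p = 0.0101). Mitochondrial transcripts, ribosomal RNAs included, held 0.312 to 0.477% of reads in the 6 neural libraries and 19.3 to 25.3% in the 6 whole-brain libraries.

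Among genes of progenitors and division, Fgf15 had -1.19 ± 0.22 (adjusted p = 0.0200), Notch1 -0.76 ± 0.15 (adjusted p = 0.0245), Mcm4 -0.91 ± 0.15 (adjusted p = 0.0114) and Cenpf -0.91 ± 0.17 (adjusted p = 0.0235). Metabolic and translation genes were Fasn at -0.64 ± 0.13 (adjusted p = 0.0285), Srebf2 at -0.51 ± 0.11 (adjusted p = 0.0330), Elovl1 at 1.38 ± 0.27 (adjusted p = 0.0262), Mars at -0.74 ± 0.15 (adjusted p = 0.0289) and Yars at -0.50 ± 0.11 (adjusted p = 0.0459). The lysosomal genes Ctsa and Hexa had 0.78 ± 0.14 (adjusted p = 0.0178) and 0.83 ± 0.16 (adjusted p = 0.0220).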

How the results depend on the processing

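The neural total of 5856 genes ran from 4050 to 6587 with 1 library left out, was 2979 higher and 2920 lower by edgeR, 2427 and 2263 by DESeq2 and 2913 and 2892 with TMM scaling, and stayed within 1.5 times under every setting run. The whole-brain total of 2386 ran from 418 to 1953 with 1 library left out. The 1.07% of genes whose contrast differed between neural cells and whole brain ran from 0.135 to 2.46% with 1 library left out, and were 1.6% with scaling within each tissue. No paired analysis was possible because the groups compared share no replicate number.

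Scaling to total reads turned 13 lists, with higher counts of 0 for the NSL, MSL, tRNA synthetase, complexes II to V, cholesterol, S phase, mitosis, intermediate progenitor and cytosolic ribosome lists, 1 for fatty acid oxidation and cilium transport and 2 for excitatory neurons and lysosome. It also turned Mcrs1 (-0.0141), Atf4 (-0.19), Cebpg (-0.0486), Mcm7 (-0.000536), Tubb3 (-0.0542) and Sesn1 (-0.14). Other lists that turned were NSL (2 higher with totals without Rn18s-rs5 and with the length trend removed), fatty acid oxidation (4 higher by DESeq2, without a filter, without library M643 or K3_349, with totals without Rn18s-rs5 and with the length trend removed, 5 without library M689, and from 4 to 11 over all libraries left out), neural progenitors (5 lower without library K3_366, and from 5 to 6 over all libraries left out), inhibitory neurons (1 lower without a filter and without library M689) and pan-neuronal genes (3 lower with the length trend removed). With the length trend removed Atf4 moved to -0.0617. Mitochondrial genome transcripts have no span and got no value there. The cause was not tested. Depth of 7692944 to 10753089 reads, of which Rn18s-rs5 took up to 39.3%, limits genes near a mean of 10.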
